A study of Homo sapiens with 9 samples.

Results

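The genes described here are the chemokines, the interleukins, their receptors and a few further cytokines and inhibitors of NF-κB signalling, measured by RNA sequencing in A498 cells, an established human line of clear cell renal cell carcinoma (ccRCC). They were taken from the count table by name: every symbol that begins with CXCL, CCL, CXCR, CCR or IL followed by a digit, together with CX3CL1, ACKR3, LIF, CSF1, CSF2, TNF, NFKBIA and TNFAIP3. This gave 155 of the 27671 genes in the table, of which 87 encode ligands, 57 encode receptors and 11 are other genes such as inhibitors, a binding protein and antisense transcripts. The study asked how far ARNT and BMAL1 each contribute to gene expression driven by HIF2α. All cells carried a lentiviral PLKO.1 construct and had been selected with puromycin, and no further treatment is described for them. The 3 groups were shControl, which carried a control hairpin, shBMAL1, which carried a hairpin against BMAL1, and shARNT, which carried a hairpin against ARNT, with 3 biological replicates each. Each gene was targeted by a single hairpin, so an effect of that hairpin on other transcripts cannot be told apart from loss of its target.

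Chemokines are small secreted proteins that direct the movement of leukocytes through receptors coupled to G proteins, and interleukins carry signals between immune, epithelial and stromal cells, mostly through paired receptor chains. Many genes for inflammatory chemokines and for IL6 are activated by NF-κB, whose inhibitors IκBα (NFKBIA) and A20 (TNFAIP3) are themselves NF-κB targets and limit its activity. In ccRCC, loss of the VHL protein stabilises hypoxia-inducible factors, which pair with ARNT, and the chemokine receptor CXCR4 is a known target of these factors. BMAL1 pairs with CLOCK to drive circadian transcription.

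Library totals lay between 35269870 and 36099096 counts. The factors that scale libraries to each other (trimmed means of M values, TMM) were 0.932 to 0.944 in shControl, between 0.961 and 0.971 in shBMAL1, and between 1.1 and 1.11 in shARNT, and levels are given below as CPM, the usual scaling of counts to a library of fixed size after the TMM factor. The targeted transcripts were depleted: ARNT had 1603, 1667 and 1738 counts in shControl and 369, 361 and 395 in shARNT (log2 -2.41), and ARNTL, the symbol used for BMAL1, had 556, 524 and 536 in shControl and 185, 191 and 140 in shBMAL1 (log2 -1.70). Each depletion also moved the other transcript: ARNT had 1128, 1147 and 1038 counts in shBMAL1 (log2 -0.65, adjusted p = 1.55e-08), and ARNTL had 948, 993 and 893 in shARNT (log2 0.55, adjusted p = 8.29e-06). The renal markers PAX8, KRT8, KRT18 and VIM were all present, whereas EPCAM was near 0 at 0.413 CPM in shControl. Of the leukocyte markers, CD3E and MS4A1 had no count in any library and PTPRC had none in shARNT. CD68 made up nearly all of the summed level of that list, 1794 to 1913 CPM in shControl, 1761 to 1871 after BMAL1 depletion and 138 to 150 after ARNT depletion. CD68 is a lysosomal protein that is not restricted to leukocytes. The summed endothelial markers were 2.764 to 3.402, 2.84 to 3.91 and 0.581 to 0.833 CPM in the same order, and the summed fibroblast markers, nearly all COL1A1, were 232 to 245, 34.2 to 37.3 and 40.7 to 50.7 CPM. The part of these shifts in the results below was not tested.

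The filter on low counts left 60 of the 155 genes for testing: 25 ligands, 29 receptors and 6 others. A further 52 had some counts but did not pass, with no mean above 9.67 counts, and 43 had no count in any library. Genes close to the filter may have passed only through the group in which they were high, so counts over tested genes are given as a description beside the same counts over all 15551 tested genes. A gene was called where the p of edgeR's quasi-likelihood test, adjusted after Benjamini and Hochberg over all tested genes, was under 0.1. This test is the source of every adjusted p below, except where DESeq2 is named. The test gives no standard error, so SE below stands for the absolute log2 fold change divided by the square root of its F statistic. The replicates are called biological in the labels, but it is not given whether they were separate infections, so the p-values measure the spread between these libraries. In bulk RNA, fewer cells that express a gene and less RNA per cell cannot be told apart.

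Receptor transcripts were mostly lower after ARNT depletion. In shARNT against shControl, 52 of the 60 tested genes were called, against a background of 81.8% of all tested genes. Of these, 17 were higher and 35 were lower, while 40.5% of all tested genes were higher and 41.3% lower. Among the 29 tested receptors 5 were called higher and 20 lower, with a median log2 fold change of -1.02, and among the 25 tested ligands 9 were higher and 12 lower, with a median of -0.31. The median over all tested genes was -0.01. With library size as the sole scaling, the median of all genes was 0.24 higher, their split moved from 6304 higher and 6419 lower to 7828 and 5111, and under that scaling 18 of the tested genes described here were higher and 28 lower.

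After BMAL1 depletion most called genes of both kinds were higher. In shBMAL1 against shControl, 47 of the 60 were called, against 63.4% of all tested genes, 33 higher and 14 lower. Over all tested genes 31.9% were higher and 31.5% lower. Among ligands 15 were higher and 5 lower, with a median log2 fold change of 0.68, and among receptors 15 were higher and 7 lower, with a median of 0.29. Both comparisons use the same control libraries, so their values are set side by side below and only the direct contrast tests how the depletions differ.

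In the direct contrast of shARNT with shBMAL1, 47 of the 60 were called, against 81.2% of all tested genes. Control libraries are not compared in this contrast, but they enter the filter, the scaling and the estimate of spread of the shared fit. There were 10 higher and 37 lower in shARNT, where 40.1% and 41.1% of all tested genes were higher and lower. Of the receptors 23 of 29 were lower in shARNT and 4 were higher, with a median log2 difference of -0.91, and of the ligands 12 of 25 were lower and 5 higher, with a median of -0.39. The summed level of all 57 receptor transcripts was 1034 to 1071 CPM in control libraries, 1271 to 1286 with BMAL1 depleted and 562 to 592 with ARNT depleted, so the 3 groups did not overlap. For the 87 ligand transcripts the sums were 315 to 325, 335 to 351 and 304 to 346 CPM, and shARNT overlapped both other groups. This total joins families that moved differently. In the same order, chemokine ligands were 43.2 to 46.0, 54.2 to 55.4 and 30.5 to 32.0 CPM. Interleukin ligands were 129 to 136, 95.8 to 98.8 and 87.9 to 103 CPM. Most of the interleukin sum was IL32, at a mean of 116 CPM in shControl. Of the 11 tested interleukin ligands, 6 were called higher and 1 lower in shBMAL1, beside 31.9% and 31.5% of all tested genes. LIF, CSF1, CSF2 and TNF together were 135 to 153, 185 to 196 and 184 to 211 CPM. The plot of shares called shows receptors and ligands beside all genes.

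**Figure D1:**
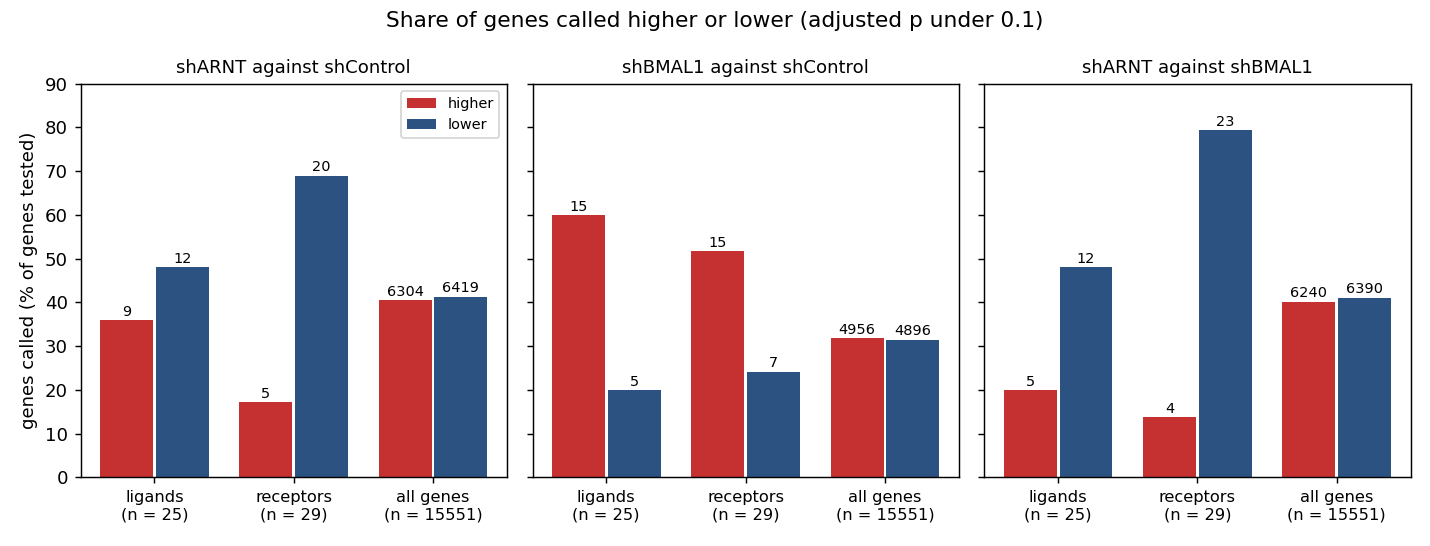
Percent of tested genes called higher (red) or lower (blue) at an adjusted p under 0.1 in each contrast, for the 25 ligands, the 29 receptors and all 15551 genes, with the number of genes above each bar. In shARNT the lower bar of the receptors (20 genes) is the tallest of its panel, and in shBMAL1 the higher bars of ligands and receptors (15 genes each) are the tallest.

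**Figure D2:**
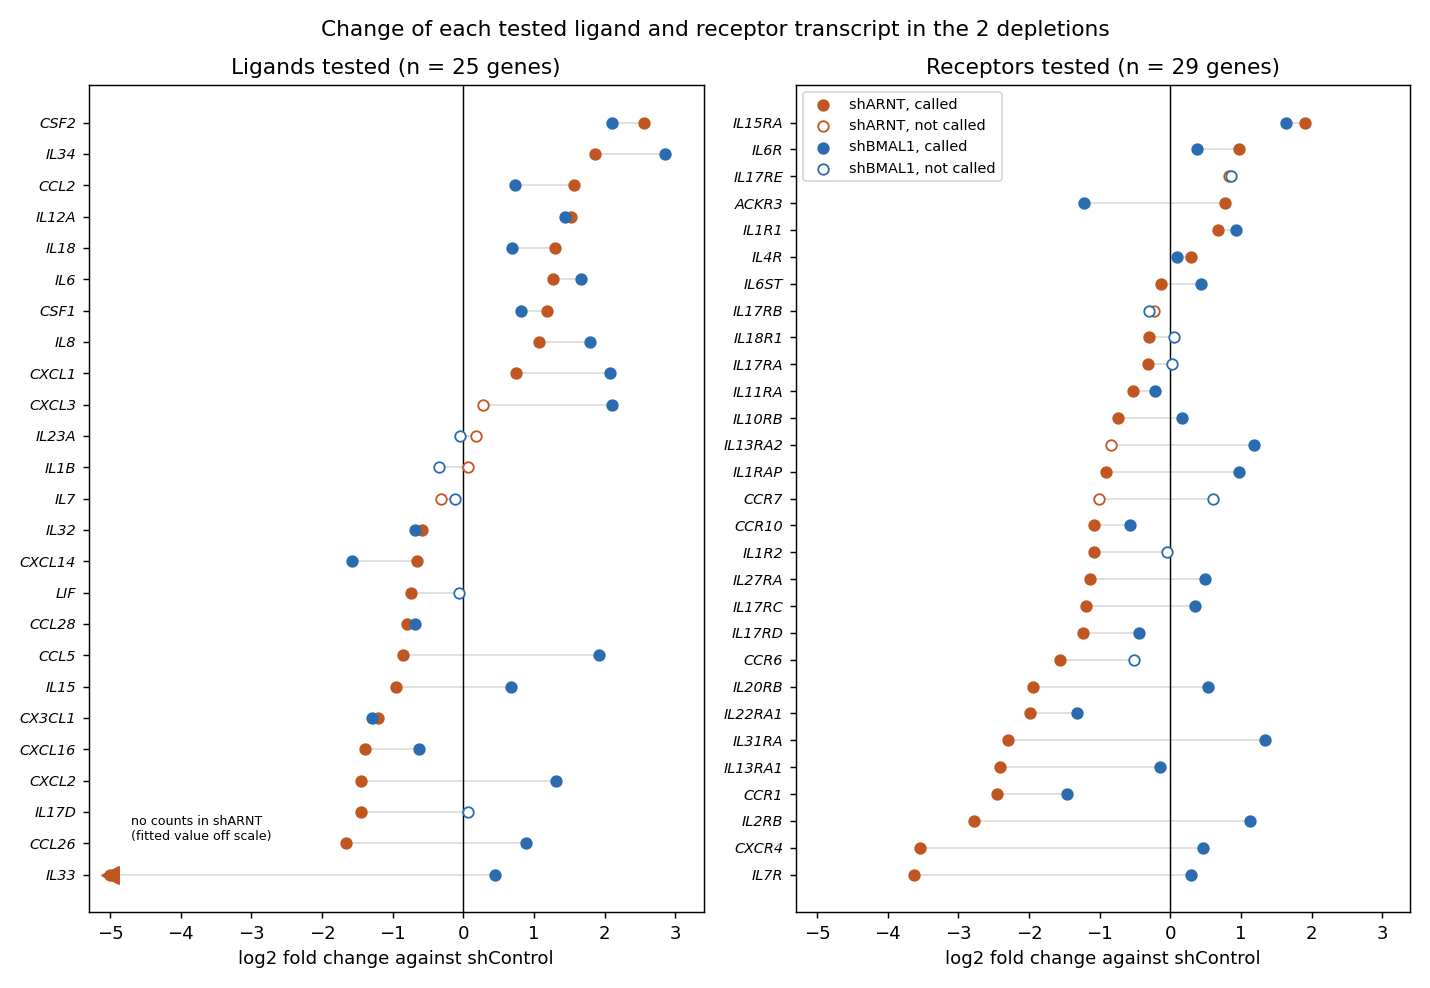
Log2 fold change against shControl of every tested ligand (left) and receptor (right), in shARNT (orange) and shBMAL1 (blue), ordered by the shARNT value. Filled points were called and open points were not, and the triangle marks IL33, which had no counts in shARNT and whose fitted value lies off the axis. Most receptors lie left of 0 in shARNT, and CXCR4 and IL7R lie farthest left.

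Among the chemokine ligands, 11 of 43 could be tested. In shARNT 3 were higher and 7 lower, beside 40.5% and 41.3% of all tested genes. In shBMAL1 7 were higher and 4 lower, beside 31.9% and 31.5%. The CXC ligands that attract neutrophils, IL8 (the symbol used for CXCL8), CXCL1, CXCL2 and CXCL3, lie in a cluster on chromosome 4 and were all scarce in shControl. Their known receptors were absent or nearly so, with no CXCR1 count in any library and a single CXCR2 count in all 9.

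The promoters of all 4 hold the same 9 letters. They are shown because these genes rose together in shBMAL1 and parted in shARNT. In the RefSeq promoter table for GRCh38.p14, which covers 250 bases before to 50 after each start, the capitals mark a match to GGANNTTCC, a form of the NF-κB site. GGAATTTCC reads as a match on both strands. The sites lie at chr4:73869305-73869333 (plus strand) for CXCL1, chr4:74099254-74099282 (minus strand) for CXCL2, chr4:74038749-74038777 (minus strand) for CXCL3 and chr4:73740468-73740496 (plus strand) for IL8.
CXCL1: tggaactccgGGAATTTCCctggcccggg
CXCL2: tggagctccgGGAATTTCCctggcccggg
CXCL3: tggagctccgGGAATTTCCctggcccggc
IL8: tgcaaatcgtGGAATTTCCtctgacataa

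A promoter was found for 42 of the 60 tested genes. GGANNTTCC, searched on both strands, was present in 4.59% of all 27305 promoters and in 11 of the 42, namely CSF2, CXCL1, CXCL2, CXCL3, IL27RA, IL32, IL6, IL7R, IL8, NFKBIA and TNFAIP3. By role these were 7 of 15 ligand promoters and 2 of 22 receptor promoters. The core letters of the hypoxia response element were less frequent here: ACGTG was in 21.6% of all promoters and in 3 of the 42, and GCGTG in 36.3% and 6. The E-box CACGTG, which contains ACGTG and is bound by CLOCK and BMAL1, was in 7.43% of all promoters and in 2 of the 42, IL17RB and TNFAIP3. These matches describe the letters of the windows and do not show binding.

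CXCL1 (chromosome 4, 74735110 to 74737025, GRCh37, as for all gene positions below) had 16, 16 and 15 counts in shControl replicates 1 to 3, 67, 54 and 84 in shBMAL1, and 40, 24 and 31 in shARNT. All depleted libraries were above all control libraries, and those of shBMAL1 were the highest. The log2 fold change was 2.07 in shBMAL1 (SE 0.291, adjusted p = 4.47e-06) and 0.75 in shARNT (SE 0.317, adjusted p = 0.0368). The shARNT call was lost without shARNT replicate 1, where the value was 0.55 (adjusted p = 0.165). IL8 (74606236 to 74609433) had 18, 19 and 19 counts in shControl, 43, 77 and 81 in shBMAL1 and 46, 46 and 50 in shARNT. IL8 rose by 1.79 (SE 0.283, adjusted p = 1.85e-05) after BMAL1 depletion and by 1.08 (SE 0.293, adjusted p = 0.00242) after ARNT depletion, and the 2 depletions overlapped through the lowest shBMAL1 library.

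CXCL2 (74962757 to 74964913) had 43, 36 and 33 counts in shControl, 96, 86 and 107 in shBMAL1 and 15, 17 and 17 in shARNT. Unlike CXCL1 and IL8 it was lower in shARNT than in any control library. CXCL2 rose by 1.32 on the log2 scale in shBMAL1 (SE 0.217, adjusted p = 3.03e-05) but fell by 1.44 in shARNT (SE 0.269, adjusted p = 6.21e-05), a direct difference of -2.76 (adjusted p = 2.25e-09). CXCL3 (74902306 to 74904524) had 4, 5 and 4 counts in shControl, 21, 11 and 27 in shBMAL1, and 7, 8 and 4 in shARNT. Its change was called in shBMAL1 (2.11, SE 0.506, adjusted p = 0.00136), and in shARNT the value was 0.28 (SE 0.606, adjusted p = 0.681). CXCL1, CXCL2 and CXCL3 are close paralogs whose canonical transcripts were 69.2% to 83.7% identical. No stretch of 100 bases, the length of a read, was shared, but the handling of reads with several alignments is not stated and could move counts between them.

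CC chemokines did not move as a group. CCL2 (chromosome 17, 32582293 to 32584227), which recruits monocytes, had 161, 166 and 138 counts in shControl, 256, 279 and 264 in shBMAL1 and 506, 565 and 583 in shARNT. The 3 groups were separate and in that order. It rose by 0.73 (SE 0.111, adjusted p = 1.08e-05) in shBMAL1 and by 1.57 (SE 0.106, adjusted p = 2.67e-11) in shARNT. CCL5 (34198495 to 34207797), an attractant of T cells and monocytes, had 36, 33 and 23 counts in shControl, 156, 112 and 93 in shBMAL1 and 20, 20 and 21 in shARNT. It was 3.78-fold higher in shBMAL1 (log2 1.92, adjusted p = 1.21e-06) and 1.80-fold lower in shARNT (log2 -0.85, adjusted p = 0.0142). CCL26 (chromosome 7, 75398851 to 75419214), an attractant of eosinophils, had 341, 353 and 403 counts in shControl, 696, 714 and 695 in shBMAL1 and 124, 125 and 167 in shARNT. CCL26 rose by 0.89 (SE 0.0994, adjusted p = 2.03e-07) in shBMAL1 but fell by 1.66 (SE 0.115, adjusted p = 4.7e-11) in shARNT, again with no overlap between groups. CCL28, a mucosal chemokine at 0.927 CPM in shControl, was called lower in both depletions at log2 -0.69 after BMAL1 depletion (adjusted p = 0.096) and log2 -0.80 after ARNT depletion (adjusted p = 0.0384). The shARNT call was also lost without shControl replicate 2 or shARNT replicate 3, and the shBMAL1 call under DESeq2 and without most single libraries. Both CCL28 calls were lost under scaling by library size alone, with values of -0.64 (adjusted p = 0.121) and -0.57 (adjusted p = 0.135).

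The remaining tested chemokines fell in both depletions. CXCL16 (chromosome 17, 4636828 to 4643223), a membrane-bound chemokine that also acts as a scavenger receptor, had 712, 712 and 645 counts in shControl, 452, 481 and 453 in shBMAL1 and 358, 289 and 295 in shARNT. Its log2 fold changes were -0.63 (SE 0.0876, adjusted p = 4.04e-06) and -1.39 (SE 0.0909, adjusted p = 1.6e-11). CXCL14 (chromosome 5, 134906369 to 134914969), which is expressed by epithelia, had 83, 87 and 79 counts in shControl and 26, 24 and 36 in shBMAL1, a log2 fold change of -1.58 (adjusted p = 4.49e-05). In shARNT it had 44, 90 and 55 counts. Replicate 2 there was level with the controls in counts, and the log2 value of -0.66 (adjusted p = 0.0194) was no longer called under library size alone (-0.42, adjusted p = 0.118) or without shARNT replicate 1 (-0.45, adjusted p = 0.107). CX3CL1, the membrane-bound fractalkine, was scarce, with 35, 39 and 31 counts in shControl, 2, 23 and 19 in shBMAL1 and 20, 11 and 23 in shARNT. The log2 values were -1.30 (adjusted p = 0.021) and -1.21 (adjusted p = 0.0183). CXCL12, the ligand of CXCR4 and ACKR3, had 2 counts in a single shControl library and none elsewhere, and was not tested.

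**Figure D3:**
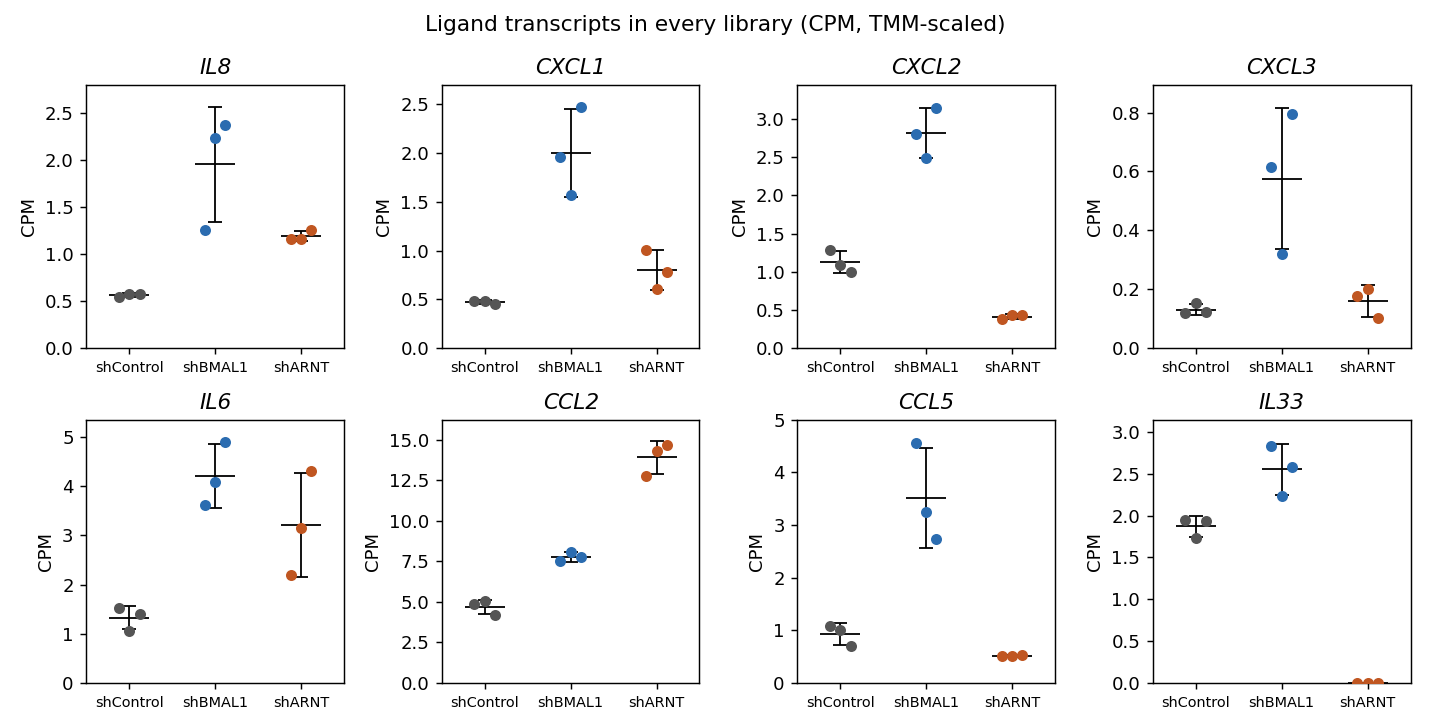
CPM in every library for 8 ligands, with the points of replicates 1 to 3 from left to right in each group and the mean ± SD (n = 3) as a bar with whiskers. CXCL2, CCL5 and IL33 are highest in shBMAL1 and lowest in shARNT, with no IL33 count in the shARNT libraries, whereas CCL2 is highest in shARNT.

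Of the 17 chemokine receptors, 6 could be tested. In shARNT 1 was higher and 4 lower, beside 40.5% and 41.3% of all tested genes. In shBMAL1 1 was higher and 3 lower, with a median log2 fold change of -0.54, beside 31.9% and 31.5%. CXCR4 (chromosome 2, 136871919 to 136876747) was the receptor with the highest level per kilobase of transcript in shControl, at 76.7 CPM per kilobase. It had 4664, 4150 and 3889 counts in shControl, 6454, 5857 and 5785 in shBMAL1, and 419, 387 and 504 in shARNT. The groups were far apart: the level was 128 ± 11.3 CPM (SD, n = 3) in shControl, 176 ± 10.8 in shBMAL1 and 11.02 ± 1.51 in shARNT. CXCR4 was thus 11.6-fold lower in shARNT (log2 -3.54, SE 0.0814, adjusted p = 7.36e-19) and 1.38-fold higher in shBMAL1 (log2 0.46, SE 0.0666, adjusted p = 5.9e-06). Its promoter holds the core letters GCGTG, in capitals, at chr2:136118174-136118198 (GRCh38.p14, minus strand), shown because CXCR4 is a known target of hypoxia-inducible factors.
CXCR4: cgcgctcggaGCGTGtttttataaa

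ACKR3 (chromosome 2, 237476430 to 237490997), the atypical receptor that takes up CXCL12, moved the other way. It had 586, 665 and 729 counts in shControl, 290, 267 and 319 in shBMAL1 and 1276, 1389 and 1398 in shARNT. None of these groups overlapped. It fell by 1.22 in shBMAL1 (SE 0.0926, adjusted p = 7.15e-10) and rose by 0.78 in shARNT (SE 0.0821, adjusted p = 3.33e-08), and the direct difference of 2.00 was the largest in favour of shARNT among the 60 tested genes. ACKR3 exceeded CXCR4 per kilobase in shARNT, at 16.96 against 6.61 CPM per kilobase, while in shControl it was at 9.90.

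The CC receptors were low throughout. CCR1, a receptor of CCL5 on myeloid cells, had 71, 45 and 69 counts in shControl, 8, 35 and 26 in shBMAL1 and 13, 12 and 15 in shARNT. CCR1 fell by 1.47 (SE 0.353, adjusted p = 0.00139) and 2.46 (SE 0.382, adjusted p = 7.29e-06) on the log2 scale, respectively. The direct difference of -0.99 (adjusted p = 0.0414) was not called without shBMAL1 replicate 2 (-0.56, adjusted p = 0.288) or replicate 3 (-0.89, adjusted p = 0.106). CCR6 and CCR10, mucosal homing receptors, fell in shARNT with log2 values of -1.56 (adjusted p = 0.000702) and -1.08 (adjusted p = 0.000493). In shBMAL1 CCR10 was also called lower (-0.57, adjusted p = 0.047), whereas CCR6 was not called (-0.52, adjusted p = 0.206). The shBMAL1 call of CCR10 was lost without shControl replicate 1 or 2 or shBMAL1 replicate 1. A further gene annotated on the same strand shares 95.8% of the canonical exons of CCR6. CCR7, which guides cells to lymph nodes, had 4 to 16 counts per library, and its log2 value of -1.02 in shARNT was not called (adjusted p = 0.113).

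**Figure D4:**
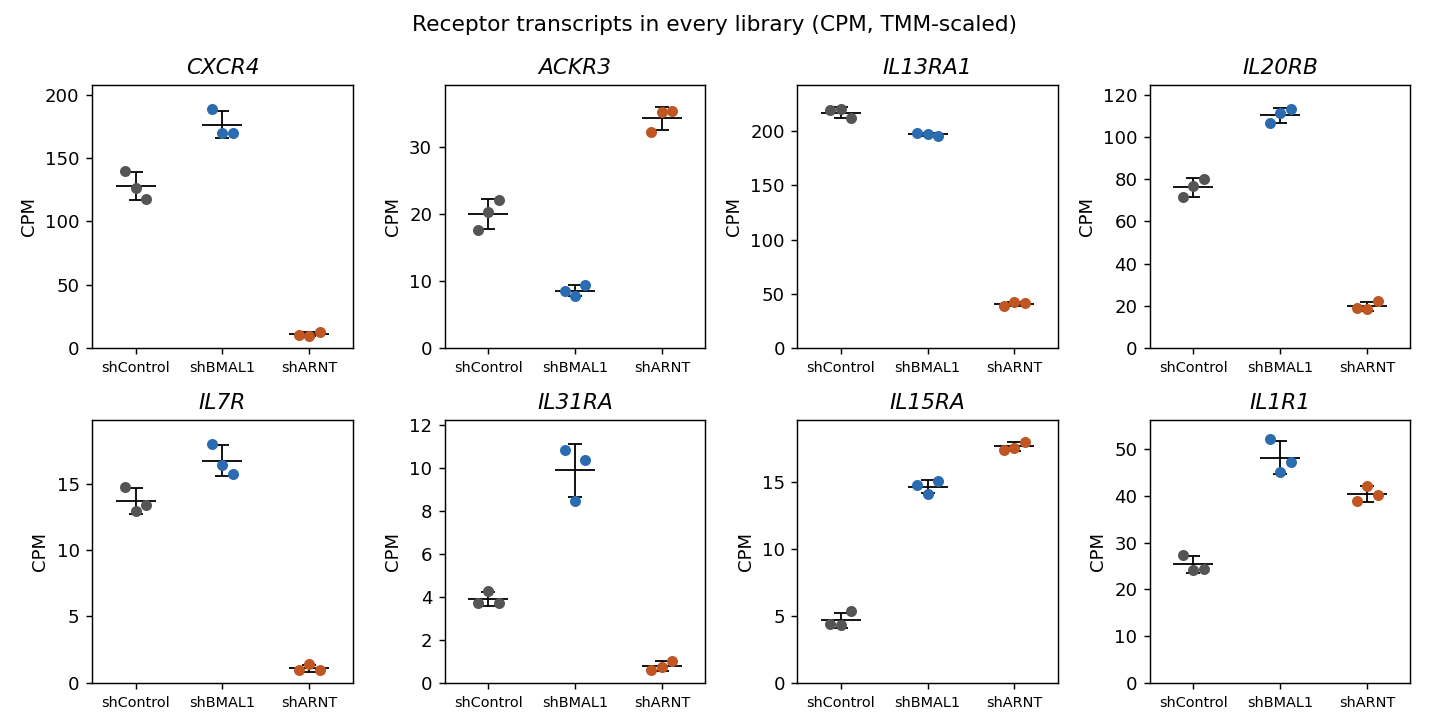
CPM in every library for 8 receptors, with the points of replicates 1 to 3 from left to right in each group and the mean ± SD (n = 3) as a bar with whiskers. CXCR4, IL13RA1, IL20RB, IL7R and IL31RA are lowest in shARNT, whereas ACKR3 and IL15RA are highest there and IL1R1 is above shControl in both depletions.

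Of the 40 interleukin genes that encode ligands, 11 could be tested. In shARNT 4 were higher and 4 lower, a split close to the 40.5% and 41.3% of all tested genes. In shBMAL1 6 were higher and 1 lower, beside 31.9% and 31.5%. IL6 (chromosome 7, 22765503 to 22771621), the inflammatory ligand that signals through gp130, had 51, 35 and 46 counts in shControl, 124, 141 and 167 in shBMAL1 and 87, 125 and 171 in shARNT. Every depleted library was above every control library and the 2 depletions overlapped. IL6 rose by 1.66 in shBMAL1 (SE 0.232, adjusted p = 4.1e-06) and by 1.27 in shARNT (SE 0.235, adjusted p = 5.52e-05). The direct difference of -0.39 (adjusted p = 0.0924) was lost under library size alone (-0.20, adjusted p = 0.384), under DESeq2 (-0.38, adjusted p = 0.169) and without shBMAL1 replicate 2 or 3 or shARNT replicate 1 or 2, with values from -0.40 to -0.17. The IL6 promoter has a GGANNTTCC match at chr7:22727118-22727146 (GRCh38.p14, plus strand), printed for comparison with the chemokine sites above.
IL6: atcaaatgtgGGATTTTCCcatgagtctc

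IL33 (chromosome 9, 6215786 to 6257983), an alarmin of the IL1 family that is stored in the nucleus, had 65, 57 and 64 counts in shControl, 97, 77 and 88 in shBMAL1, and none in any shARNT library. Against a floor of 3 counts per library, IL33 was at least 24.8-fold lower in shARNT than in shControl and at least 33.7-fold lower than in shBMAL1 (adjusted p = 1.06e-10 and 2.3e-11). The rise in shBMAL1 was 0.45 (adjusted p = 0.0852), and this call was lost under DESeq2 (adjusted p = 0.186), without a filter on low counts (adjusted p = 0.113) and without any single shControl library, as well as without shBMAL1 replicate 1 or 3. Its receptor chain IL1RL1 had 2 counts in a single shBMAL1 library and none elsewhere.

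The other members of the IL1 family behaved differently. IL18 had 98, 63 and 48 counts in shControl, 100, 114 and 133 in shBMAL1 and 224, 183 and 207 in shARNT. It rose by 0.68 (adjusted p = 0.00825) in shBMAL1, where counts scaled to CPM overlapped shControl, and by 1.29 (SE 0.198, adjusted p = 6.04e-06) in shARNT. IL18BP, the decoy that binds IL18, was lower in shBMAL1 (log2 -1.20, adjusted p = 0.000218) and in shARNT (log2 -0.59, adjusted p = 0.0209), the latter not called under library size alone (-0.35, adjusted p = 0.152). IL1B, the main secreted form of IL1 in inflammation, had 24 to 54 counts per library and was not called in shBMAL1 (log2 -0.35, adjusted p = 0.309) or in shARNT (log2 0.07, adjusted p = 0.815). IL1A had a single count in all 9 libraries.

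IL15 (chromosome 4, 142557736 to 142655140), which sustains natural killer and memory T cells, had 210, 235 and 212 counts in shControl, 365, 359 and 364 in shBMAL1 and 126, 133 and 147 in shARNT. The groups were separate. IL15 rose by 0.68 in shBMAL1 (SE 0.106, adjusted p = 1.66e-05) and fell by 0.95 in shARNT (SE 0.116, adjusted p = 2.61e-07). IL15RA (chromosome 10, 5985602 to 6020150), the chain that binds IL15 and presents it on the cell surface, had 146, 142 and 176 counts in shControl, 504, 486 and 511 in shBMAL1 and 687, 694 and 714 in shARNT. It rose by 1.64 in shBMAL1 (SE 0.0969, adjusted p = 1.62e-11) and by 1.91 in shARNT (SE 0.0952, adjusted p = 1.94e-13). Ligand and receptor chain thus had opposite signs in shARNT and the same sign in shBMAL1.

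IL32 (chromosome 16, 3115298 to 3132193), an intracellular and secreted inducer of inflammatory cytokines, was the ligand with the highest level per kilobase in each group, 142 CPM per kilobase in shControl. It had 3975, 3803 and 3757 counts in shControl, 2437, 2544 and 2444 in shBMAL1 and 2969, 2887 and 3399 in shARNT. It fell by 0.68 in shBMAL1 (adjusted p = 1.28e-09) and by 0.58 in shARNT (adjusted p = 4.12e-09). IL17D, a distant IL17 family ligand, fell in shARNT from 0.373 to 0.135 CPM (log2 -1.45, adjusted p = 0.00983). IL12A, the p35 subunit shared by IL12 and IL35, had 8, 3 and 8 counts in shControl, 15, 22 and 17 in shBMAL1 and 24, 24 and 18 in shARNT, so that it was higher in both (log2 1.44, adjusted p = 0.009, and log2 1.52, adjusted p = 0.00351). IL34, a second ligand of the CSF1 receptor, had 1, 7 and 0 counts in shControl, 17, 20 and 25 in shBMAL1 and 1, 9 and 26 in shARNT. Its shARNT value of 1.86 (adjusted p = 0.0607) rested on single libraries: it was 0.63 (adjusted p = 0.573) without shARNT replicate 3 and 4.04 without shControl replicate 2, and it was not called without shControl replicate 1 (1.48, adjusted p = 0.174) or 3 (1.30, adjusted p = 0.198). In shBMAL1 it was 2.85 (adjusted p = 0.00508) and 5.03 without shControl replicate 2. IL23A and IL7 were not called in either depletion.

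Both colony-stimulating factors rose. CSF1 (chromosome 1, 110452864 to 110473614), the growth factor of macrophages, had 2149, 2034 and 2436 counts in shControl, 3763, 3835 and 4457 in shBMAL1 and 5496, 5951 and 6503 in shARNT. It was 66.7 ± 6.26 CPM in shControl, 117 ± 11.8 in shBMAL1 and 151 ± 12.6 in shARNT, and it rose by 0.82 (SE 0.073, adjusted p = 8.78e-09) and 1.18 (SE 0.0726, adjusted p = 6.33e-12). CSF2, which encodes GM-CSF, had 2, 5 and 6 counts in shControl, 15, 26 and 18 in shBMAL1 and 12, 32 and 50 in shARNT. The log2 fold changes were 2.10 (SE 0.584, adjusted p = 0.00431) and 2.56 (SE 0.553, adjusted p = 0.000299), with wide spread among the shARNT libraries. LIF (chromosome 22, 30636442 to 30642748), a gp130 ligand, had 2331, 2546 and 2616 counts in shControl, 2543, 2667 and 2203 in shBMAL1 and 1784, 1761 and 1802 in shARNT. It fell by 0.75 in shARNT (SE 0.0624, adjusted p = 8.6e-10), and in shBMAL1 the value was -0.06 (adjusted p = 0.384), within the spread between libraries. TNF had 3 counts in all 9 libraries together and was not tested.

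The 40 interleukin receptor genes included 23 that could be tested. In shARNT 4 were higher and 16 lower, with a median log2 fold change of -0.83, beside 40.5% and 41.3% of all tested genes. In shBMAL1 14 were higher and 4 lower, with a median of 0.35, beside 31.9% and 31.5%. They are described here by the ligands they bind.

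Receptor chains for IL4 and IL13 diverged. IL13RA1 (chromosome X, 117861096 to 117928498), which pairs with IL4R to bind IL13 and IL4, had 7295, 7257 and 6993 counts in shControl, 6765, 6807 and 6648 in shBMAL1 and 1532, 1671 and 1655 in shARNT. It was 5.31-fold lower in shARNT (log2 -2.41, SE 0.0441, adjusted p = 2.34e-20), and in shBMAL1 the fall was 0.14 (SE 0.0405, adjusted p = 0.00573). IL4R rose in shARNT by 0.30 (SE 0.0453, adjusted p = 5.54e-06), from 77.4 ± 1.31 to 95.1 ± 2.29 CPM. In shBMAL1 its value of 0.10 (adjusted p = 0.0741) was lost under DESeq2 (adjusted p = 0.123) and without shControl replicate 1 or 2 or shBMAL1 replicate 2 or 3. IL13RA2, the decoy receptor of IL13, had 13, 16 and 7 counts in shControl, 22, 35 and 28 in shBMAL1 and 9, 6 and 9 in shARNT. It rose by 1.18 in shBMAL1 (adjusted p = 0.0121), and its shARNT value of -0.83 was not called (adjusted p = 0.102).

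Receptors of the IL10 and IL20 group were lower in shARNT. IL20RB (chromosome 3, 136665072 to 136729927), which pairs with IL20RA or IL22RA1, had 2377, 2529 and 2645 counts in shControl, 3639, 3833 and 3854 in shBMAL1 and 745, 732 and 882 in shARNT. It was 3.83-fold lower in shARNT (log2 -1.94, SE 0.0656, adjusted p = 3.64e-16) and rose by 0.54 in shBMAL1 (SE 0.0594, adjusted p = 1.85e-07). IL22RA1 (chromosome 1, 24446261 to 24469630), the specific chain for IL22 on epithelial cells, had 429, 444 and 403 counts in shControl, 181, 160 and 186 in shBMAL1 and 128, 122 and 136 in shARNT. It fell in both, by 1.32 (adjusted p = 2.44e-09) and by 1.98 (SE 0.113, adjusted p = 1.74e-12). IL10RB, the chain that IL10 and IL22 receptors share, fell by 0.74 in shARNT (adjusted p = 2.47e-11), from 118 ± 4.44 to 70.7 ± 1.98 CPM, and rose by 0.16 in shBMAL1 (adjusted p = 0.00693). A read-through transcript annotated as IFNAR2-IL10RB shares 89.2% of the canonical IL10RB exons. IL10RB-AS1 lies ahead of IL10RB on the opposite strand and does not overlap it. It was called higher by 0.63 in shARNT (adjusted p = 0.0257), a call lost without shControl replicate 3 (0.44, adjusted p = 0.131). In addition, 79.6% of its exons overlap IFNAR2 on the opposite strand and the use of strand in counting is not stated, so its reads cannot be told apart from those of IFNAR2. IL20RA had 3 counts in a single library.

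IL7R (chromosome 5, 35852797 to 35879705), which binds IL7 with the common gamma chain and TSLP with CRLF2, had 492, 425 and 443 counts in shControl, 616, 564 and 536 in shBMAL1 and 37, 56 and 39 in shARNT. It was 12.3-fold lower in shARNT (log2 -3.62, SE 0.138, adjusted p = 2.4e-15) and rose by 0.29 in shBMAL1 (SE 0.101, adjusted p = 0.0198). IL2RG, the common gamma chain, had at most 2 counts in any library. IL2RB, a chain of the IL2 and IL15 receptors, had 22, 22 and 4 counts in shControl, 25, 34 and 50 in shBMAL1 and 0, 0 and 8 in shARNT. Its shARNT value of -2.78 (adjusted p = 0.00369) was -7.10 without shARNT replicate 3, the sole library of that group with counts, and its shBMAL1 value of 1.13 (adjusted p = 0.0768) was lost without shControl replicate 3 (0.67, adjusted p = 0.304), without shBMAL1 replicate 2 (adjusted p = 0.121) or 3 (adjusted p = 0.279) and under DESeq2 (adjusted p = 0.477).

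Receptors that use gp130 or resemble it were split. IL6ST, which encodes gp130, had 3263, 2943 and 2884 counts in shControl, 4378, 4161 and 4157 in shBMAL1 and 3164, 3378 and 3391 in shARNT. It rose by 0.43 in shBMAL1 (SE 0.0496, adjusted p = 2.82e-07). In shARNT the value was -0.13 (adjusted p = 0.0213). Under library size alone it turned to 0.10 (adjusted p = 0.0658) and was called higher, so the direction called depends on the scaling. The call as lower was lost without shControl replicate 1 (-0.083, adjusted p = 0.139) or shARNT replicate 1 (-0.099, adjusted p = 0.109). IL6R, the chain that binds IL6, rose by 0.38 in shBMAL1 (adjusted p = 0.00927) and by 0.98 in shARNT (SE 0.113, adjusted p = 1.35e-07), from 4.91 ± 0.35 to 9.65 ± 0.499 CPM. IL31RA (chromosome 5, 55147185 to 55218682), which pairs with the oncostatin M receptor to bind IL31, had 123, 140 and 123 counts in shControl, 370, 292 and 352 in shBMAL1 and 24, 29 and 41 in shARNT. It rose by 1.34 in shBMAL1 (SE 0.145, adjusted p = 1.32e-07) and was 4.90-fold lower in shARNT (log2 -2.29, SE 0.191, adjusted p = 8.61e-10). IL27RA, the IL27 chain, rose by 0.50 in shBMAL1 (SE 0.0537, adjusted p = 1.39e-07) but fell by 1.14 in shARNT (SE 0.0571, adjusted p = 2.09e-13), with 48.7 ± 1.16 CPM in shControl, 68.7 ± 2.26 in shBMAL1 and 22.1 ± 1.31 in shARNT. IL11RA, the IL11 chain, fell by 0.52 in shARNT (adjusted p = 0.000109), and its shBMAL1 value of -0.21 (adjusted p = 0.0782) was lost under library size alone (-0.17, adjusted p = 0.175) and DESeq2 (adjusted p = 0.11). A further gene annotated on the same strand shares 96.2% of the canonical exons of IL11RA.

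In the IL1 receptor family, IL1R1, the signalling receptor of IL1, had 913, 796 and 808 counts in shControl, 1784, 1556 and 1607 in shBMAL1 and 1538, 1667 and 1593 in shARNT. It rose by 0.93 in shBMAL1 (SE 0.067, adjusted p = 3.65e-10) and by 0.67 in shARNT (SE 0.067, adjusted p = 1.4e-08). IL1RAP, the accessory chain that IL1R1 and the IL33 receptor need for signalling, had 1758, 1675 and 1745 counts in shControl, 3384, 3704 and 3402 in shBMAL1 and 1028, 1106 and 1166 in shARNT. It rose by 0.97 in shBMAL1 (SE 0.0532, adjusted p = 5.42e-12) and fell by 0.91 in shARNT (SE 0.0562, adjusted p = 6.58e-12), so the receptor and its accessory chain differed in sign in shARNT. IL1R2, the decoy that binds IL1 without signalling, fell by 1.08 in shARNT (adjusted p = 9.59e-06), from 4.44 ± 0.723 to 2.09 ± 0.421 CPM, and its shBMAL1 value was -0.04 (adjusted p = 0.84). IL18R1 was called lower in shARNT, and this call was lost under library size alone, DESeq2, the test without a filter and all but 2 of the fits without a shControl or shARNT library.

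IL17 receptor chains were lower in shARNT or not called. IL17RC, a partner of IL17RA, had 2086, 2184 and 2028 counts in shControl, 2758, 2826 and 2720 in shBMAL1 and 1158, 1140 and 1009 in shARNT, log2 fold changes of 0.35 (adjusted p = 1.46e-05) and -1.19 (SE 0.0573, adjusted p = 1.13e-13). A further gene on the same strand shares 69.9% of its canonical exons. IL17RD, a member of the family that also restrains growth factor signalling, fell by 1.24 in shARNT (adjusted p = 1.13e-05). It was also called lower in shBMAL1 (-0.44, adjusted p = 0.0546), a call lost without shControl replicate 2 or shBMAL1 replicate 1 or 3. IL17RA, the common chain, was at 62.8 ± 1.87 CPM in shControl and 50.4 ± 3.6 in shARNT, and the fall of 0.32 (adjusted p = 6.34e-05) was not called under library size alone (-0.08, adjusted p = 0.205). In shBMAL1 IL17RA was at 64.0 ± 4.33 CPM (log2 0.03, adjusted p = 0.713). IL17RB and IL17RE were not called in either depletion.

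Per kilobase of transcript, the receptors with the highest levels in shControl were CXCR4, IL10RB (60.9 CPM per kilobase) and IL13RA1 (54.3). In shARNT they were IL10RB (36.4), IL4R (26.2) and ACKR3 (16.96). CSF1 was the second ligand in shARNT at 37.8 CPM per kilobase, after IL32, and CCL26 held that rank in shControl (23.3) and in shBMAL1 (43.2).

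The NF-κB inhibitors rose in both depletions. NFKBIA (chromosome 14, 35870285 to 35873955) had 539, 418 and 469 counts in shControl, 1458, 1493 and 1458 in shBMAL1 and 1066, 1298 and 1368 in shARNT. The 3 groups were separate. It rose by 1.58 in shBMAL1 (SE 0.089, adjusted p = 8.06e-12) and by 1.13 in shARNT (SE 0.0895, adjusted p = 3.86e-10). TNFAIP3 (chromosome 6, 138188351 to 138204451) had 264, 216 and 230 counts in shControl, 703, 604 and 662 in shBMAL1 and 681, 802 and 940 in shARNT. Its log2 fold changes were 1.42 (SE 0.113, adjusted p = 1.48e-09) and 1.51 (SE 0.112, adjusted p = 1.26e-10), and the direct difference of 0.09 was not called (adjusted p = 0.437). IL4I1, a secreted enzyme that breaks down amino acids, rose by 0.31 in shBMAL1 (adjusted p = 0.000461), and its shARNT value of -0.14 (adjusted p = 0.0622) turned to 0.095 under library size alone. Its call was lost under DESeq2 (adjusted p = 0.117) and without shControl replicate 2 (adjusted p = 0.104) or shARNT replicate 1 (-0.081, adjusted p = 0.307). Both inhibitor promoters hold a GGANNTTCC match, for NFKBIA at chr14:35404812-35404840 (minus strand) and for TNFAIP3 at chr6:137867182-137867210 (plus strand, with the match on the opposite strand), both in GRCh38.p14.
NFKBIA: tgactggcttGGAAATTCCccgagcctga
TNFAIP3: acgtgactttGGAAAGTCCcgtggaaatc

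Further genes of the same pathways were taken from lists chosen with earlier results of these data known, and their counts stand beside 40.5% of all tested genes higher and 41.3% lower in shARNT, and 31.9% and 31.5% in shBMAL1. Of 18 NF-κB pathway genes (subunits, kinases, inhibitors and adaptors), 14 were higher and 2 lower in shARNT, with a median of 0.43, and 14 were higher and 2 lower in shBMAL1, with a median of 0.49. BIRC3, a ubiquitin ligase of the pathway, rose from 161, 210 and 163 counts in shControl to 3235, 2845 and 2805 in shBMAL1 and 894, 915 and 895 in shARNT, by 4.01 (SE 0.0873, adjusted p = 9.32e-18) and by 2.08 (SE 0.0918, adjusted p = 2.76e-14) on the log2 scale. NFKBIB, a further inhibitor, rose by 1.22 in shARNT (adjusted p = 3.65e-13) and by 0.80 in shBMAL1 (adjusted p = 1.7e-09). TRAF1, an adaptor, rose by 2.14 in shBMAL1 (adjusted p = 3.71e-08) and by 1.04 in shARNT (adjusted p = 0.000285). Among 11 tested genes known to respond to NF-κB, 7 were higher and 2 lower in shBMAL1, and 3 were higher and 8 lower in shARNT, with medians of 0.73 and -1.635. PTGS2, the inducible cyclooxygenase, rose by 1.53 in shBMAL1 (SE 0.0779, adjusted p = 1.85e-12) but fell by 4.12 in shARNT (SE 0.120, adjusted p = 3.5e-17). MMP1, a collagenase, had 5, 8 and 7 counts in shControl, 49, 49 and 44 in shBMAL1 and 0, 1 and 0 in shARNT. TNFRSF9, a costimulatory receptor, rose by 2.73 in shBMAL1 (adjusted p = 7.12e-10).

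Genes that act downstream of interleukin receptors were split much like all tested genes in shARNT, where 40.5% were higher and 41.3% lower. Of 21 JAK, STAT and SOCS genes, 8 were higher and 10 lower in shARNT and 8 were higher and 6 lower in shBMAL1. SOCS2, a feedback inhibitor, fell by 2.97 in shARNT (adjusted p = 2.06e-11) and JAK3, the kinase bound to the common gamma chain, fell by 2.11 (adjusted p = 1.9e-10). JAK3 also fell in shBMAL1, by 0.35 (adjusted p = 0.0391), whereas SOCS2 was not called there (adjusted p = 0.169). In shBMAL1 the feedback inhibitors SOCS1 and SOCS5 rose by 1.11 (adjusted p = 0.0159) and 0.52 (adjusted p = 8.03e-06). SOCS1 rose in shARNT as well, by 0.96 (adjusted p = 0.0252), and SOCS5 was not called there (adjusted p = 0.622). Of 11 tested genes of IL1 receptor signalling, 5 were higher and 5 lower in shARNT and 6 were higher and 2 lower in shBMAL1. IRAK2, a kinase of that pathway, rose by 1.75 in shARNT (adjusted p = 1.71e-13) and by 1.20 in shBMAL1 (adjusted p = 5.09e-10), and CASP1, the protease that matures IL1B and IL18, rose by 1.72 (adjusted p = 9.54e-10) and 0.83 (adjusted p = 0.000103).

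Of 20 tested interferon-stimulated genes, 15 were higher and 2 lower in shBMAL1, with a median of 0.58, beside 31.9% and 31.5% of all tested genes. In shARNT 10 were higher and 8 lower, with a median of 0.15, near the 40.5% and 41.3% of all tested genes. IRF1 rose by 1.13 in shBMAL1 and by 1.84 in shARNT (adjusted p = 2.35e-11 and 1.17e-15), whereas IFI6 fell by 3.27 in shARNT (adjusted p = 5.33e-17). IFIT2 and IFIT3, which encode antiviral proteins, rose by 1.20 and 1.17 in shBMAL1 (adjusted p = 1.83e-09 and 2.05e-09). Both were also higher in shARNT, by 0.43 and 1.37 (adjusted p = 0.000557 and 3.34e-11). Partner receptors and ligands outside the name rule had 10 tested genes, of which 1 was higher and 6 lower in shARNT, and 3 were higher and 3 lower in shBMAL1. CSF2RA, the chain that binds GM-CSF, had 31, 41 and 46 counts in shControl, 17, 40 and 41 in shBMAL1 and none in shARNT. CRLF2, which pairs with IL7R to bind TSLP, rose from 0, 6 and 6 counts in shControl to 55, 36 and 41 in shBMAL1 (log2 3.37, adjusted p = 5.51e-05) and had 7, 7 and 0 in shARNT.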

How the data were processed

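RNA of 9 A498 libraries (DNBSEQ stranded mRNA, paired-end reads of 100 bases) was counted per gene. The study's methods name GRCh37, SeqMan NGen and ArrayStar, whereas the submitters' processing notes list hg38, STAR and DESeq2, so the build behind the counts is uncertain. The deposited values are estimated counts (linear total reads) that the authors made per gene, in which 0.05 stands for no reads. Whether reads or read pairs were counted, and whether strand was used, is not given in the sources used here.

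The placeholder was set to 0, rows that share a name were summed (45 names) and values were rounded. Library totals were 35269870 to 36099096, so 3 counts, the floor used, were 0.0756 to 0.0911 CPM; this floor covers counting error only. Genes were filtered with filterByExpr, scaled by TMM and tested in 1 fit over all 9 libraries by edgeR 4.0.16 (quasi-likelihood, R 4.3.3), with Benjamini-Hochberg adjustment over 15551 genes and a threshold of 0.1. The script was tested on simulated data. Alternatives were scaling by library size alone, DESeq2 1.42.0, no filter, a replicate block, only the 6 libraries compared, halved counts, a 1.5-fold minimum and leaving out each library.

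The members and gene lists were chosen with earlier results of these data known. By rule, a fixed list of ligands, receptors and inhibitors was named, with the 8 called members of largest change in each contrast with shControl (mean of at least 20 counts, no overlap) and 2 genes per context list and contrast, of which 1 is not reported here. All other members named, 29 of them with fitted values, were chosen after their values were seen. Gene positions are from GENCODE 44 lifted to GRCh37, promoters from RefSeq for GRCh38.p14.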

Additional observations from a re-analysis of the deposited data

Results flagged for a closer look

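The values here are log2 differences of shARNT minus shBMAL1, from the direct contrast of edgeR, listed because the depletions differed at an adjusted p under 0.1, which 81.2% of all tested genes did.

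Among ligands, the lower values in shARNT were -2.77 for CCL5, -2.76 for CXCL2, -2.55 for CCL26, -1.82 for CXCL3, -1.63 for IL15, -1.51 for IL17D, -1.32 for CXCL1, -0.77 for CXCL16, -0.71 for IL8, -0.68 for LIF and -0.39 for IL6. IL33 had a fitted value of -9.51, which depends on the prior count since shARNT had no counts, and its bound is at least 33.7-fold lower. The higher values were 0.92 for CXCL14, 0.84 for CCL2, 0.61 for IL18, 0.36 for CSF1 and 0.11 for IL32. The IL32 call was lost without shControl replicate 2 (adjusted p = 0.101), in a fit of the 6 depleted libraries alone (adjusted p = 0.118), without shBMAL1 replicate 1 or 3 (adjusted p = 0.186 and 0.153) and without shARNT replicate 3 (0.035, adjusted p = 0.537).

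Among chemokine receptors, the values were -4.00 for CXCR4, -1.62 for CCR7, -1.05 for CCR6, -0.99 for CCR1, -0.51 for CCR10 and 2.00 for ACKR3. The CCR10 call was lost under library size alone and DESeq2 (adjusted p = 0.263 and 0.15) and without replicate 2 or 3 of either depletion, and that of CCR6 without shBMAL1 replicate 3 (-0.79, adjusted p = 0.109).

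Among interleukin receptors, the largest falls were -3.91 for IL7R and IL2RB, -3.64 for IL31RA, -2.47 for IL20RB, -2.27 for IL13RA1 and -2.02 for IL13RA2. The IL2RB value was -8.23 without shARNT replicate 3. Values of -1.88 for IL1RAP, -1.64 for IL27RA, -1.54 for IL17RC and -1.04 for IL1R2 followed. Smaller falls were -0.91 for IL10RB, -0.80 for IL17RD, -0.66 for IL22RA1, -0.57 for IL6ST, -0.35 for IL17RA, -0.31 for IL11RA and -0.26 for IL1R1, of which those of IL11RA and IL1R1 were not called under library size alone. IL6R (0.59), IL15RA (0.27) and IL4R (0.20) were higher in shARNT. Of the inhibitors and other genes, NFKBIA (-0.45) and IL4I1 (-0.46) were lower and IL18BP (0.61) was higher, the last not called without shBMAL1 replicate 3 (0.39, adjusted p = 0.151).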

How the results depend on the processing

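Scaling by library size alone gave median log2 fold changes of -0.78 for receptors in shARNT, and 0.73 for ligands and 0.33 for receptors in shBMAL1. It turned the shARNT values of IL4I1 (0.095) and IL6ST (0.10, adjusted p = 0.0658), the shBMAL1 value of IL1R2 (0.0047) and the direct value of CCL28 (0.074). With halved counts the filter was run again and left 14614 genes to test. Medians over the members that still passed were -0.58 for ligands and -1.08 for receptors in shARNT, and 0.16 for receptors in shBMAL1. A minimum of 1.5-fold left 6 genes higher in the direct contrast.

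Leaving out each library, the genes called higher and lower ranged from 16 to 20 and 32 to 37 in shARNT, from 31 to 34 and 10 to 15 in shBMAL1, and from 11 to 13 and 33 to 38 in the direct contrast. The filter was run again in each of these fits, so genes that did not pass it in the main fit could enter these counts. Ligand medians ranged from -0.40 to -0.18 in shARNT, 0.65 to 0.76 in shBMAL1 and -0.65 to -0.17 in the direct contrast, and receptor medians from -1.11 to -0.90, 0.23 to 0.34 and -0.94 to -0.73. Values that changed sign when a library was left out were IL1B in shARNT (-0.15 to 0.22), IL17D (-0.17 to 0.29), IL17RA (-0.029 to 0.061), IL1R2 (-0.15 to 0.085) and LIF (-0.12 to 0.0083) in shBMAL1, and CCL28 (-0.38 to 0.18), CSF2 (-0.045 to 0.85), CX3CL1 (-0.43 to 0.56), IL12A (-0.040 to 0.24) and TNFAIP3 (-0.032 to 0.20) in the direct contrast. The causes of these changes were not tested.

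Replicate numbers did not pair the libraries, since deviations of same-numbered libraries correlated at -0.041 to 0.0754. With the number as a block, 17 genes were higher and 34 lower in shARNT, 31 and 14 in shBMAL1 and 10 and 38 in the direct contrast. The block ended the calls of IL33 and IL2RB in shBMAL1 (adjusted p = 0.112 and 0.133) and of IL18R1 in shARNT. The corresponding DESeq2 counts were 19 and 36, 31 and 14, and 13 and 38. DESeq2 used its own filter, so genes that did not pass the main filter could enter its counts.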
